A study of Mus musculus with 32 samples.

Results

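The 10 genes described here are Ftsj1, its tRNA partners Thada and Wdr6, the tRNA 2'-O-methyltransferase genes Trmt13 and Trmt44, and the rRNA 2'-O-methyltransferase genes Ftsj3, Mrm1, Mrm2, Mrm3 and Fbl. They were taken by gene symbol out of the 55289 named genes that each of 5 organ tables lists. All 10 symbols were found in every table, 9 had a mean above 0 in all 5, and Mrm2 was listed at 0 in all 5.

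A 2'-O-methyl group on the ribose makes an RNA backbone more rigid and protects it from hydrolysis. In yeast, the homolog of Ftsj1 places this mark in the tRNA anticodon loop. The homolog of Thada guides the enzyme to the start of the loop, and the homolog of Wdr6 guides it to the wobble residue. Loss of FTSJ1 in people causes a form of X-linked intellectual disability. The other enzymes of the group place the same mark elsewhere on tRNA, on cytosolic rRNA or on the large rRNA of mitochondria.

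The series compared Ftsj1_DF mice with WT mice, all male, 4 months old and given no treatment. Brain, heart, kidney and liver came from 6 mice, with 3 Ftsj1_DF and 3 WT libraries per organ, and spleen from 8 others, with 4 Ftsj1_DF and 4 WT libraries. Each set of brothers named in the labels held both genotypes, and the allele behind the genotype name and the strain are not given in the sources used here. Degradome sequencing ligates an adapter to uncapped poly(A) RNA and reads a short tag from its 5′ end, so that a value counts decapped or cleaved molecules of a gene and not its intact mRNA.

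Each table gives, per gene, the authors' mean normalized count over all libraries of an organ and their comparison of genotypes. The means summed to between 48536401 in the kidney table and 73405489 in the brain-named table, and the depth of single libraries is unknown. Values of single libraries were not analysed here, so whether the libraries of the genotypes overlap cannot be said for any gene. The table named for brain held hepatocyte transcripts, and the table named for liver held neuronal ones. The 8 hepatocyte markers made up 23.5% of the brain-named sum and 0.129% of the liver-named sum, and the 8 neuron markers had median means of 139 and 18371 there. These tables are called brain-named and liver-named throughout. Cardiomyocyte, proximal tubule and B cell markers were highest in the heart, kidney and spleen tables, and pancreatic acinar markers made up 14.5% of the spleen sum.

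Ftsj1 encodes the tRNA methyltransferase named in the genotype. On chromosome X, its annotated start lies in the RefSeq promoter window chrX:8252357-8252656, minus strand of GRCm38.p6, which runs from 250 bases before the start to 50 bases after it. The window is shown because Ftsj1 is the targeted gene and the only one of the 10 that passed the test in any table. Its capitals mark a match to the CCAAT box, read on the other strand.

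Ftsj1: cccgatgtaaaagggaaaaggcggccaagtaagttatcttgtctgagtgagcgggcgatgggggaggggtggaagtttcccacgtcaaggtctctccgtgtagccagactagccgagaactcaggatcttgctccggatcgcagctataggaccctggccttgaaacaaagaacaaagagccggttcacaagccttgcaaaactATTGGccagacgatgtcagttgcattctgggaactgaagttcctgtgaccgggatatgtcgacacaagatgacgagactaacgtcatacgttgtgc

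Of the window, 52.0% is G or C, the lowest share among the 9 genes with an entry, whose median is 62.0% against 52.7% over 27025 promoters. Of 4 motifs searched on both strands, the TATA box, searched as TATAAA, was in 0 of the 9 windows and in 14.2% of all promoters. The CCAAT box was in 3 of the 9, those of Ftsj1, Thada and Wdr6, and in 37.9% of all. The Sp1 box, searched as GGGCGG, was in 5 of the 9 and in 35.9% of all. The core of ETS factor sites, searched as CCGGAA, was also in 5 of the 9, and in 15.2% of all. The CCAAT box was the only match in the Ftsj1 window, so no motif overlapped another there. A match describes these letters and is not a shown binding site.

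Tags of Ftsj1 were lower in Ftsj1_DF than in WT mice in each of the 5 tables, and the difference passed, at an adjusted p under 0.05, in 3 of them. The direction of the fold change is not stated in the tables: values are read as Ftsj1_DF over WT because Ftsj1 is negative in all 5, so its own sign is an assumption and its sizes are the measurement. From the deposited mean and fold change, and taking that fold as the ratio of the genotype means, Ftsj1 stood at 4.09 ppm of the table sum (normalized counts per 1000000) in Ftsj1_DF and 29.2 ppm in WT in the brain-named table. By the same calculation it stood at 3.26 in Ftsj1_DF and 33.9 in WT for the liver-named table, and at 0.803 in Ftsj1_DF and 7.25 in WT for spleen. These 3 are the falls that passed. The authors' deposited table for the brain-named libraries gives a log2 fold change of -2.84 with a standard error of 0.38 (DESeq2 adjusted p = 1.75e-09), which leaves 14.0% of WT with a 95% interval of 8.35% to 23.5%. The authors' deposited table for the liver-named libraries gives -3.38 with a standard error of 0.59 (DESeq2 adjusted p = 1.76e-04), which leaves 9.62% (4.30% to 21.5%). Dividing the test statistics of that table by their robust spread over genes ended this call (rescaled Wald test on the DESeq2 values, adjusted p = 0.0561). The authors' deposited table for spleen gives -3.17 with a standard error of 0.77 (DESeq2 adjusted p = 0.0261), which leaves 11.1% (3.89% to 31.5%). In bulk tissue, fewer cells of a type and less RNA per cell cannot be told apart.

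**Figure D1:**
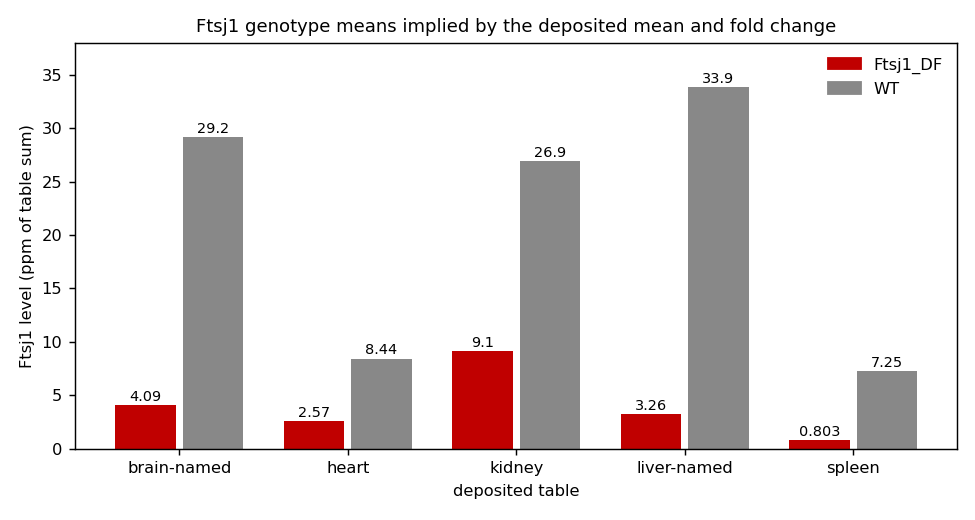
Bars give the Ftsj1 level in ppm of the table sum for Ftsj1_DF (red, left) and WT (grey, right) in each deposited table, as implied by the authors' mean and fold change, with no error bar because single libraries were not analysed. The Ftsj1_DF bar is the lower one in all 5 tables, with 0.803 to 9.10 ppm against 7.25 to 33.9 in WT.

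In the heart and kidney tables the implied values were 2.57 in Ftsj1_DF and 8.44 in WT, and 9.10 in Ftsj1_DF and 26.9 in WT. The authors' deposited table for heart gives a log2 fold change of -1.72 with a standard error of 1.03 (DESeq2 adjusted p = 0.594), so that its 95% interval, 7.53% to 123% of WT, includes no difference. The authors' deposited table for kidney gives -1.56 with a standard error of 0.61 (DESeq2 adjusted p = 0.202), with an interval of 14.7% to 78.0% of WT. As background, the share of tested genes passing as lower in Ftsj1_DF was 0.0795% for the brain-named, 0.771% for the heart, 0.866% for the kidney, 0.0855% for the liver-named and 0.0953% for the spleen libraries. Which part of the gene the remaining tags come from was not analysed here.

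Markers of other cell types had fold changes of 1 sign in some of these tables, and their part in the results was not tested. In the brain-named table, the 6 tested of 8 pancreatic acinar markers were all higher in Ftsj1_DF, with a median log2 fold change of 3.95. Of these 6, 1 was past the test and all had an unadjusted p under 0.05. Among all tested genes of that table, 0.335% passed as higher and 10.8% had such a p. The implied sum over all 8, tested or not, was 5946 ppm in Ftsj1_DF and 439 ppm in WT, and none of the 8 was at 0. In the same table, the 3 tested of 8 adrenal cortex markers were all lower, 1 of them, Cyp21a1, past the test at the authors' deposited table value of -2.37. The implied sum over the 7 with a fold change, tested or not, was 3.96 ppm in Ftsj1_DF and 11.2 ppm in WT, and Mc2r was at 0. In the kidney table, the 4 tested of 8 adrenal cortex markers were all lower, 1 past the test, with a median of -2.22. The implied sum over the 7 with a fold change, tested or not, was 8.21 ppm in Ftsj1_DF and 111 ppm in WT, and Mc2r was at 0. In the heart table, the 7 tested of 8 adipocyte markers were all lower, none past the test, with a median of -2.09. Of these 7, 6 had an unadjusted p under 0.05, beside 10.6% of all tested genes in heart. The implied sum over all 8, tested or not, was 74.7 ppm in Ftsj1_DF and 341 ppm in WT, and none of the 8 was at 0. Hepatocyte markers were lower in all 7 tested in heart and all 8 in kidney and in spleen, none past the test, with medians of -0.83, -0.46 and -0.36. The implied sums over all 8, tested or not, were 393 ppm in Ftsj1_DF and 635 ppm in WT in heart. They were 1085 in Ftsj1_DF and 1447 in WT in kidney, and 1231 in Ftsj1_DF and 1283 in WT in spleen. In the hepatocyte-rich, brain-named libraries, by contrast, 6 of these 8 markers were higher, none past the test, with a median of 0.32. The implied sum there was 296421 ppm in Ftsj1_DF and 174068 ppm in WT. For the liver-named libraries, 2 of the 8 were higher, none past the test, with a median of -0.16. Further lists with every tested marker lower and none past the test were neuron, acinar and adrenal cortex in heart and cardiomyocyte in the kidney and liver-named tables, with medians between -0.74 and -0.14.

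Thada encodes a large repeat protein whose yeast homolog directs the methyltransferase to the residue at the start of the anticodon loop. Its tags did not pass in any table, and its widest value was in kidney. The implied means there were 515 normalized counts in Ftsj1_DF and 149 in WT, and the authors' deposited table for kidney gives 1.78 with a standard error of 0.56 (DESeq2 adjusted p = 0.0616). In the liver-named table the order was the opposite, with 532 in Ftsj1_DF and 978 in WT, and the authors' deposited table gives -0.88 with a standard error of 0.52 (DESeq2 adjusted p = 0.566). The values were -0.35 with a standard error of 0.37 for brain-named, -0.04 with 0.51 for heart and 0.33 with 0.44 for spleen libraries, from the authors' deposited table of each. Adjusted p for these 3 lay between 0.842 and 1.00 by the authors' DESeq2 test.

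Wdr6 encodes a WD-repeat protein whose yeast homolog directs the methyltransferase to the wobble residue. Its log2 fold change was negative in 1 table and positive in 4, from -0.50 in the brain-named to 0.60 in the kidney values of the authors' deposited table, with standard errors of 0.41 and 0.40. The lowest adjusted p of its 5 values was 0.608 by the authors' DESeq2 test. In the liver-named table, where Wdr6 had its highest mean, the implied means were 21024 normalized counts in Ftsj1_DF and 16652 in WT. The authors' deposited table gives 0.34 with a standard error of 0.38 there, a 95% interval of 75.3% to 212% of WT.

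Trmt13 encodes the enzyme that methylates a residue of the tRNA acceptor stem, as described for its yeast homolog. The authors' deposited table for the liver-named libraries gives 1.80 with a standard error of 0.58 (DESeq2 adjusted p = 0.165), and the implied means were 819 normalized counts in Ftsj1_DF and 235 in WT. In the heart table the implied means ran the other way, with 91.4 in Ftsj1_DF and 152 in WT, and the authors' deposited table gives -0.73 with a standard error of 0.58 (DESeq2 adjusted p = 0.742). The other 3 values, 0.66, 0.93 and 0.42 in the brain-named, kidney and spleen sets of the authors' deposited table, had standard errors of 0.51, 0.83 and 0.80. None of the 5 values of Trmt13 passed.

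Trmt44 encodes the enzyme that in yeast methylates a uridine of the tRNA variable loop. Its 5 values in the authors' deposited table lay between -0.56 in spleen and 0.17 in kidney, and the lowest adjusted p was 0.921 by the authors' DESeq2 test. The implied means were 971 normalized counts in Ftsj1_DF and 1434 in WT in spleen. In kidney, where they were 1195 in Ftsj1_DF and 1064 in WT, the 95% interval ran from 27.4% to 460% of WT, the widest relative range of its 5 tables. Differences of several-fold in kidney would therefore not have been detectable for this gene.

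Ftsj3 and Fbl act on cytosolic rRNA. Ftsj3 is the homolog of yeast Spb1, a methyltransferase of the large subunit, and Fbl encodes fibrillarin, the catalytic subunit of box C/D ribonucleoproteins, which are guided by small nucleolar RNAs. Ftsj3 was at 0.75 with a standard error of 0.37 in the brain-named set of the authors' deposited table (DESeq2 adjusted p = 0.429), with implied means of 2260 normalized counts in Ftsj1_DF and 1348 in WT. Its other 4 values in the authors' deposited table lay between -0.14 in kidney and 0.58 in spleen. Fbl had values from -1.01 in kidney to 0.81 in the liver-named set of the authors' deposited table, with standard errors of 0.88 and 0.47, and a lowest adjusted p of 0.553 by the authors' DESeq2 test. Its implied means were 80.7 in Ftsj1_DF and 162 in WT in kidney, and 568 in Ftsj1_DF and 323 in WT in the liver-named table.

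Mrm1, Mrm2 and Mrm3 encode methyltransferases of the mitochondrial large-subunit rRNA. Mrm3 had its largest positive value in the brain-named table, where the implied means were 2270 normalized counts in Ftsj1_DF and 1059 in WT and the authors' deposited table gives 1.10 with a standard error of 0.37 (DESeq2 adjusted p = 0.152). Its other 4 values in the authors' deposited table lay between -0.08 in kidney and 0.47 in the liver-named set. In the heart table, which had the highest mean of Mrm3, the implied means were 12105 in Ftsj1_DF and 9568 in WT. The 95% interval there was 82.7% to 194% of WT. Mrm1 lay between -0.28 in the brain-named and 0.23 in the liver-named set of the authors' deposited table, with a lowest adjusted p of 0.870 by the authors' DESeq2 test.

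Mrm2 was listed at 0 in all 5 tables, over 32 libraries. In the RefSeq annotation of GRCm38.p6, the Mrm2 gene lies wholly inside the span of Nudt1, which encodes a nucleotide-pool hydrolase. The authors' deposited table lists Nudt1 at means from 1254 in spleen to 3760 in kidney. Of 496 protein-coding genes that lie inside another protein-coding gene in that annotation, 401, or 80.8%, were at 0 in all 5 tables, against 5.09% of the other protein-coding genes. A read that falls on 2 genes can be set aside by a counter, and the setting the authors used is not given in the sources used here. Whether this is why Mrm2 stands at 0 was not tested, and the value is not read as an absence of its tags. Wdr6, Trmt13 and Ftsj3 each overlap another protein-coding gene in part in the same annotation, and how much of their counts this touches was not tested.

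**Figure D2:**
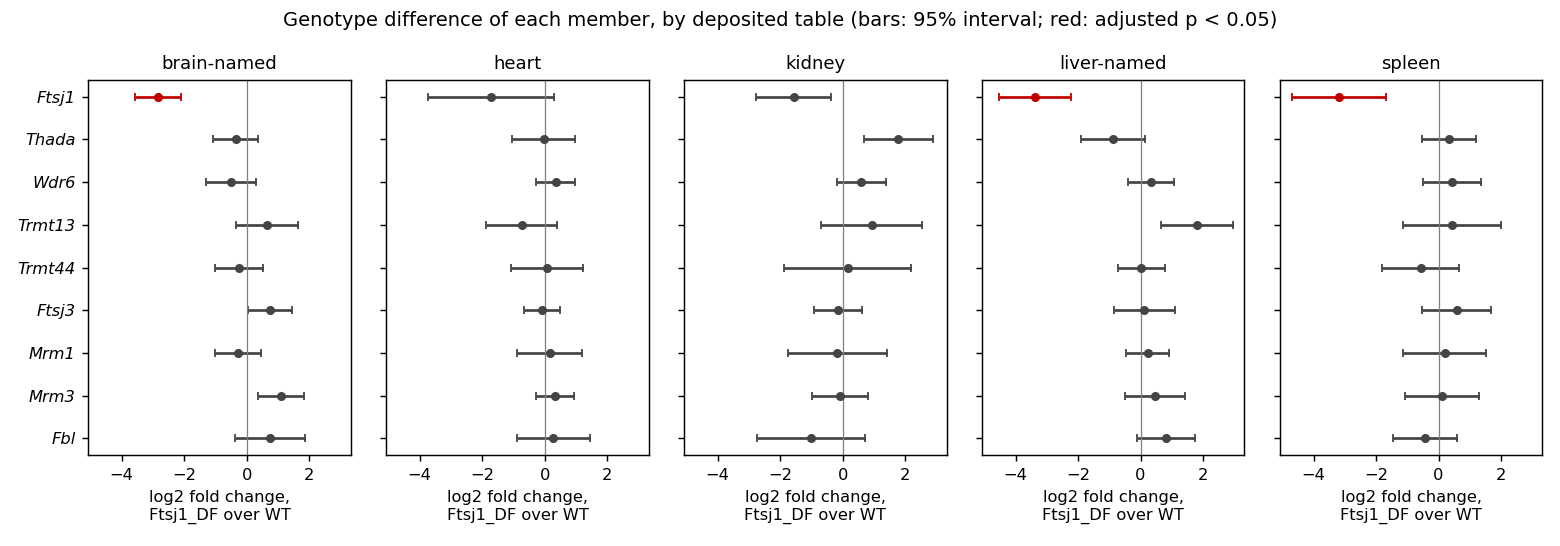
Points are the authors' deposited log2 fold changes, Ftsj1_DF over WT, of the 9 measured genes in each of the 5 tables, and bars are 95% intervals from the deposited standard errors, with red for an adjusted p under 0.05. Red points appear for Ftsj1 alone, in the brain-named, liver-named and spleen tables, and the Mrm3 and Ftsj3 bars of the brain-named, the Thada and Ftsj1 bars of the kidney and the Trmt13 bar of the liver-named table clear 0 without passing.

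Of the 8 measured genes other than Ftsj1, 0 of 40 values passed by the authors' DESeq2 test, and 4 of 40 had an unadjusted p under 0.05. The share of all tested genes with such a p was 10.8% for brain-named, 10.6% for heart, 11.9% for kidney, 10.4% for liver-named and 5.97% for spleen libraries, so that 4 of 40 is near this background. The 4 were Mrm3 and Ftsj3 in the brain-named, Thada in the kidney and Trmt13 in the liver-named table. The shares of genes passing in either direction were 0.414%, 1.19%, 2.07%, 0.203% and 0.217% in the same order. The median log2 fold change of the 8 genes was 0.21, 0.12, 0.04, 0.28 and 0.27 in that order, beside 0.04, 0.01, -0.01, -0.05 and -0.01 over all tested genes.

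A weighted mean over the 5 tables, with weights from the deposited standard errors, gave 1 genotype difference per gene for 29873 genes. It treats the tables as independent although 4 organs share mice, so its errors can be too small. Ftsj1 had the smallest p of all 29873 genes, at a combined log2 fold change of -2.68 with a standard error of 0.26 (z test, adjusted p = 8.13e-21), or 15.6% of WT with a 95% interval of 11.0% to 22.1%. By this rule 1.09% of genes passed, 0.589% as lower and 0.502% as higher in Ftsj1_DF. Heterogeneity between the tables did not pass for Ftsj1 (Cochran's Q, adjusted p = 0.803), where 1.22% of genes passed.

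None of the other 8 genes passed in the combined test. Mrm3 was at 0.45 with a standard error of 0.18 (z test, adjusted p = 0.254), an interval of 1.07-fold to 1.76-fold of WT, and was positive in 4 of 5 tables. Trmt13 was at 0.60 with a standard error of 0.28 (z test, adjusted p = 0.357), an interval of 1.04-fold to 2.21-fold, also positive in 4 of 5. Without the liver-named table Trmt13 was at 0.24, and without the heart table at 1.00 (z test, adjusted p = 0.937 and 0.113). Without the brain-named table Mrm3 was at 0.24 (z test, adjusted p = 0.768). The 2 intervals over 5 tables, which are not adjusted for the number of genes, exclude 1, while neither adjusted p was under 0.05.

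The intervals of the remaining genes limit the size of an average change, and not of a change in a single table. For the partners, they were 0.788-fold to 1.39-fold of WT for Thada and 0.945-fold to 1.51-fold for Wdr6. Single tables of Thada ran from 0.544-fold in the liver-named to 3.45-fold in the kidney values. Its heterogeneity did not pass after adjustment (Cochran's Q, unadjusted p = 0.00611, adjusted p = 0.180). Nor did that of Trmt13 (Cochran's Q, unadjusted p = 0.0441, adjusted p = 0.475). For the rRNA enzymes, the intervals were 0.895-fold to 1.44-fold for Ftsj3, 0.841-fold to 1.68-fold for Fbl and 0.766-fold to 1.36-fold for Mrm1. The interval of Trmt44 was 0.676-fold to 1.25-fold.

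**Figure D3:**
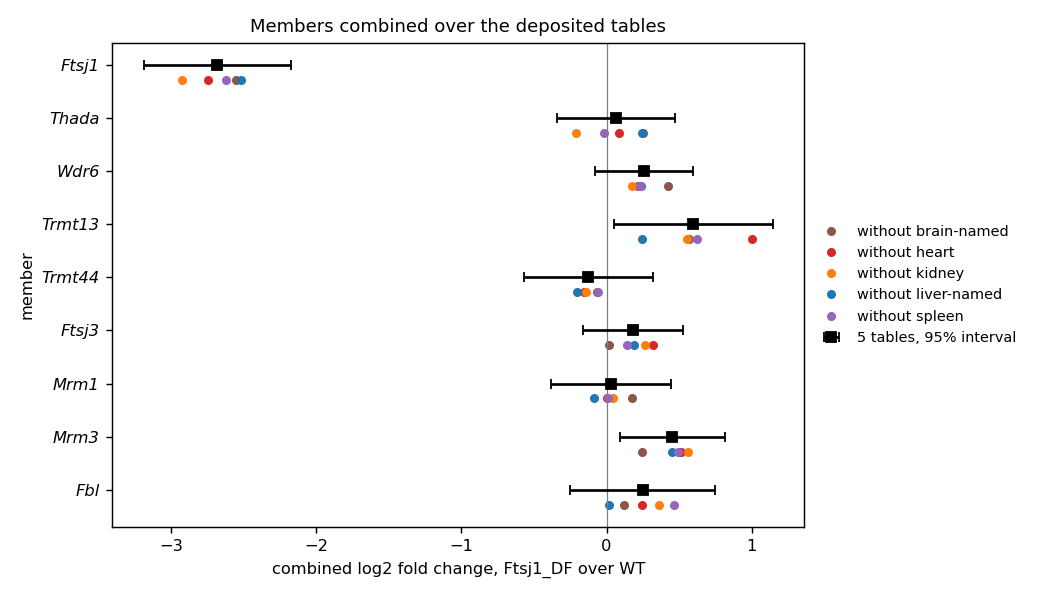
Black squares are log2 fold changes, Ftsj1_DF over WT, combined over 5 tables with 95% intervals, and coloured points leave out 1 table each. Ftsj1 lies at -2.68 and stays between -2.92 and -2.52 with any table left out, while Thada, near 0, has points on both sides of it.

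Whether a genotype difference varied between organs was tested as the difference of 2 deposited fold changes, for 10 pairs of tables and 9 genes. Of 90 differences, 0 passed by the z test adjusted over all genes of the pair, and 7 had an unadjusted p under 0.05. The share of all differences with such a p was 6.23% over every gene and 8.25% over genes whose mean reached 20 in both tables, so that 7 of 90 is near this background. In 6 of the 10 pairs the tables come from the same mice, which the test treats as independent. A positive covariance between organs of a mouse would make its errors too large there and a negative one too small, and this was not estimated. As background after adjustment, the share of all genes that passed was 0.189% for brain-named against heart, 0.764% against kidney, 0.00304% against liver-named and 0.104% against spleen. For heart it was 0.429% against kidney, 0.106% against liver-named and 0.179% against spleen. For kidney it was 0.599% against liver-named and 0.441% against spleen, and it was 0.133% for liver-named against spleen. The smallest adjusted p belonged to Thada, whose log2 fold change was higher in kidney than in the liver-named table by 2.66, with a standard error of 0.76 (z test, adjusted p = 0.0702). The next was Thada again, 2.14 higher in kidney than in the brain-named table (z test, adjusted p = 0.111). Among the 7 were a total of 4 differences of Thada, all between kidney and another table, and 1 of Ftsj1, whose log2 fold change was less negative in kidney than in the liver-named table by 1.82 with a standard error of 0.85 (z test, adjusted p = 0.544).

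Levels across organs were compared within a gene, on the scale of ppm of the table sum over both genotypes. The tables were normalized separately, and the error of a log2 level was approximated as 0.5 times the standard error of the fold change. This takes both genotypes to add alike to the mean. The mean of Ftsj1 came mostly from WT, so its level errors can be too small and its calls of levels apart are approximate. For Ftsj1 the level was 18.6 ppm for liver-named, 18.0 for kidney, 16.6 for brain-named, 5.50 for heart and 4.03 for spleen libraries. The 3 highest could not be told apart, nor could heart and spleen, while the brain-named level was 3.02-fold that of heart and apart from it. Spleen was the lowest table under all 3 scalings, but the highest was the brain-named one under both others, and with median-of-ratios it was 2.14-fold the next and apart from all 4. The implied WT levels above were also lowest in spleen and heart.

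Wdr6 had the widest span. It was at 276 ppm in the neuronal, liver-named table, 42.9 in kidney, 20.4 in spleen, 14.6 in the brain-named and 12.7 in the heart table. The liver-named level was 6.44-fold the next and apart from all 4 others, also under both other scalings, with 5.98-fold and 6.13-fold. Thada had another order, with 14.4 in spleen, 11.1 in the liver-named, 6.84 in kidney, 5.16 in heart and 3.67 in the brain-named table. No neighbouring pair of Thada levels in that order could be told apart, and the spleen level was apart from the 3 lowest. Under both other scalings the spleen level was apart from all 4 others. It was 2.03-fold the next with median-of-ratios, where kidney was the lowest table, and 2.10-fold without the 100 highest genes.

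Mrm3 stood highest in heart, at 215 ppm, against 62.7 in kidney, 59.8 in the liver-named, 59.2 in spleen and 22.7 in the brain-named table. Its heart level was 3.43-fold the next and apart from all 4 others under each of the 3 scalings, with 3.43-fold to 4.41-fold. Mrm1 did not share this pattern. It was at 29.1 in spleen, 23.1 in the liver-named, 23.0 in kidney and 22.0 in heart, none of which could be told apart on this scale. In the hepatocyte-rich, brain-named table it was at 3.78. Of the 10 pairs of Mrm1 levels, 4 were apart on this scale, 6 with median-of-ratios and 5 without the 100 highest genes. Under both of the latter the spleen level was apart from 2 tables. The brain-named level of Mrm1 was apart from all 4 others under the 3 scalings, with a next level 2.52-fold to 5.82-fold above it.

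Fbl was lowest in heart, at 0.744 ppm, with 2.50 in kidney, 3.90 in the brain-named, 6.53 in the liver-named table and 7.77 in spleen. Heart was the lowest under all 3 scalings, apart from all 4 others on this scale and from 3 of 4 under both others. Ftsj3 was also lowest in heart, at 10.2, with 17.1 in the liver-named, 18.2 in spleen, 24.6 in the brain-named and 32.9 in the kidney table, but with the median-of-ratios scaling its lowest table was the liver-named one. Trmt13 was highest in kidney under all 3 scalings, at 11.3, with 7.74 in the liver-named, 3.47 in spleen, 2.41 in heart and 1.99 in the brain-named table, and kidney and the liver-named table could not be told apart. Trmt44 was at 37.7 in the liver-named, 24.7 in spleen, 23.3 in kidney, 15.6 in the brain-named and 6.47 in the heart table. Of the 90 pairs of tables over the 9 genes, 55 were apart on this scale, 43 with median-of-ratios and 45 without the 100 highest genes. At the same p limit, 59.4%, 49.5% and 53.9% of the pairs over all genes whose mean reached 20 in every table were apart under these scalings, so that the counts for the 9 genes are near this background.

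**Figure D4:**
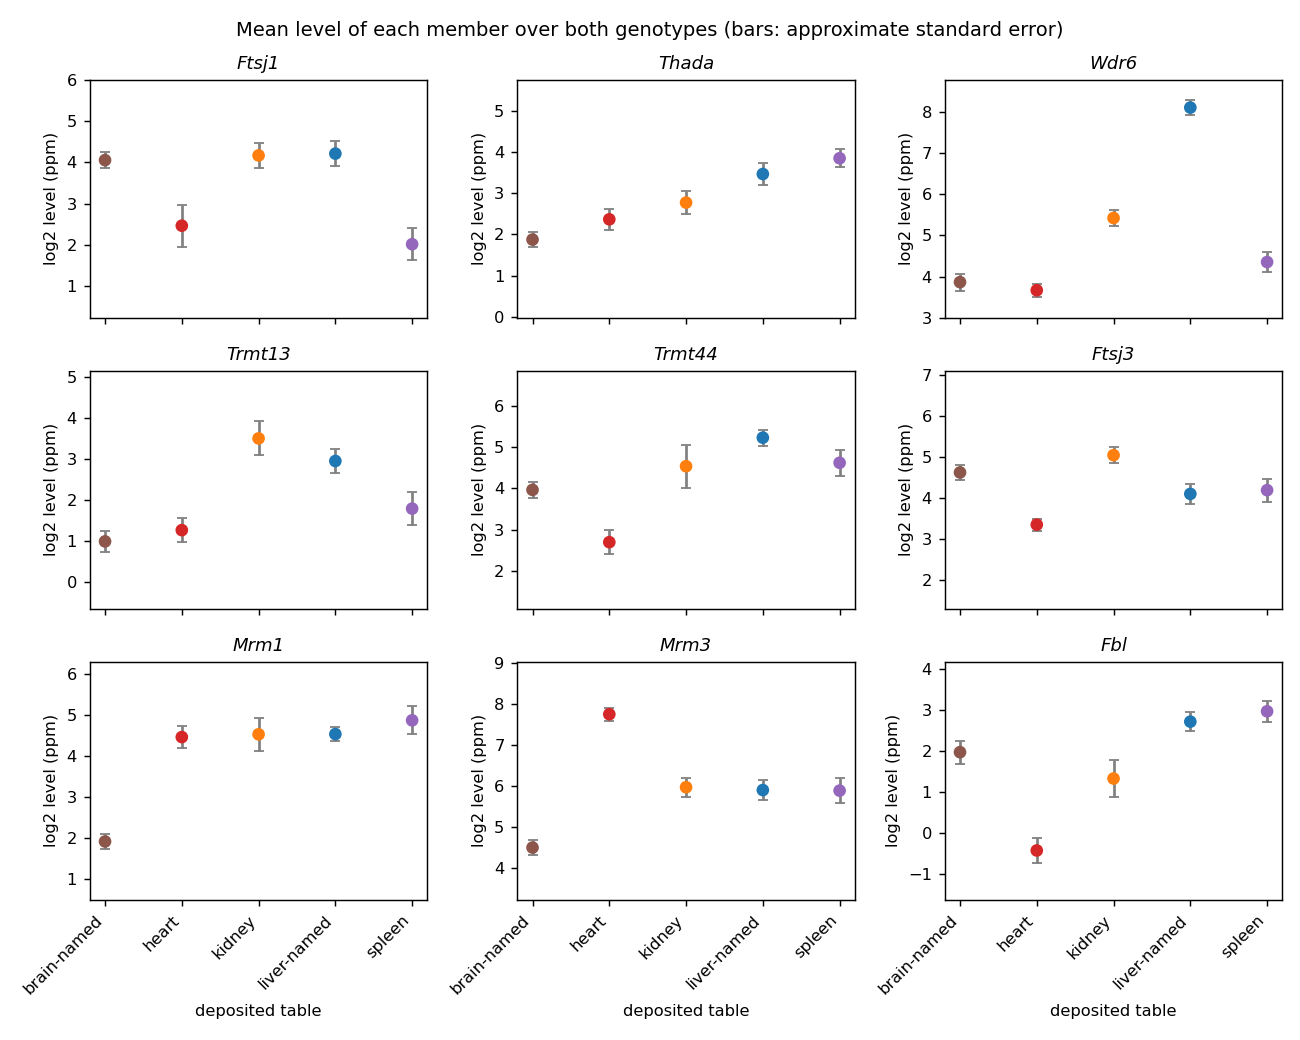
Each panel gives the log2 mean level of 1 gene, in ppm of the table sum over both genotypes, in the 5 deposited tables, with bars of 1 approximate standard error and panels of equal height in log2 units. Wdr6 stands at 276 ppm in the liver-named table, Mrm3 at 215 in heart, and Mrm1 and Fbl are low in the brain-named table (3.78) and in heart (0.744).

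The genes nearest to Ftsj1 in its genotype pattern were sought among 14738 genes whose mean reached 20 in every table, by Euclidean distance over the 5 deposited test statistics. They were Bmf, a pro-apoptotic BCL2 family gene, at a distance of 5.97, then Niban2 at 6.55, Plin1, a lipid droplet protein of adipocytes and one of the 8 adipocyte markers, at 7.05, Carhsp1, an RNA-binding protein, at 7.08 and Fam118a at 7.14. Of these, Bmf passed in 1 of the authors' deposited table sets, the brain-named one, at -2.26 with a standard error of 0.60 (DESeq2 adjusted p = 0.0487), and the others in none. In the combined test 4 of the 5 passed, beside 0.589% of all genes passing as lower in Ftsj1_DF. Carhsp1 was at -1.32 (z test, adjusted p = 8.08e-05), Bmf at -1.50 (0.00110), Plin1 at -1.30 (0.00396) and Niban2 at -0.67 (0.0255). Fam118a was at -0.93 (0.0527). The 5 were chosen by the same fold changes and errors that the combined test uses. Low values were therefore built into the choice, and these p-values, deposited or combined, are no separate evidence. By the root mean square difference of centred log2 levels over 5 tables, the nearest were Tsfm, a mitochondrial translation elongation factor, at 0.055, Dvl1, a Wnt pathway scaffold, at 0.12 and the gene model Gm7368 at 0.12.

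The neighbours of Ftsj1 on the X chromosome were read to see whether tags of adjoining genes moved with it. The 5 named protein-coding genes on each side are Wdr13, Rbm3, Tbc1d25, Ebp and Porcn before it, and Slc38a5, Ssxb10, Ssxb9, Ssxb1 and Ssxb2 after it. The 4 Ssxb genes had means of at most 3.62 normalized counts. Of the 29 values tested for the 10 neighbours, 0 passed by the authors' DESeq2 test and 3 had an unadjusted p under 0.05. Of all tested genes, 5.97% in spleen to 11.9% in kidney had such a p, so that 3 of 29 is near this background. The 3 were Wdr13 in heart, at 1.16, and Tbc1d25 and Ebp in the brain-named table, at -0.91 and 0.85. Porcn, a Wnt acyltransferase and the nearest on its side, was at -0.0049 in the brain-named and -0.62 in the liver-named set of the authors' deposited table, with standard errors of 0.37 and 0.49. Slc38a5, an amino acid transporter on the other side, was at 0.88 and -1.72 in the same sets of the authors' deposited table, with standard errors of 0.83 and 1.00. In the combined test, 0 of 8 neighbours with a value passed, and the lowest adjusted p was 0.694.

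**Figure D5:**
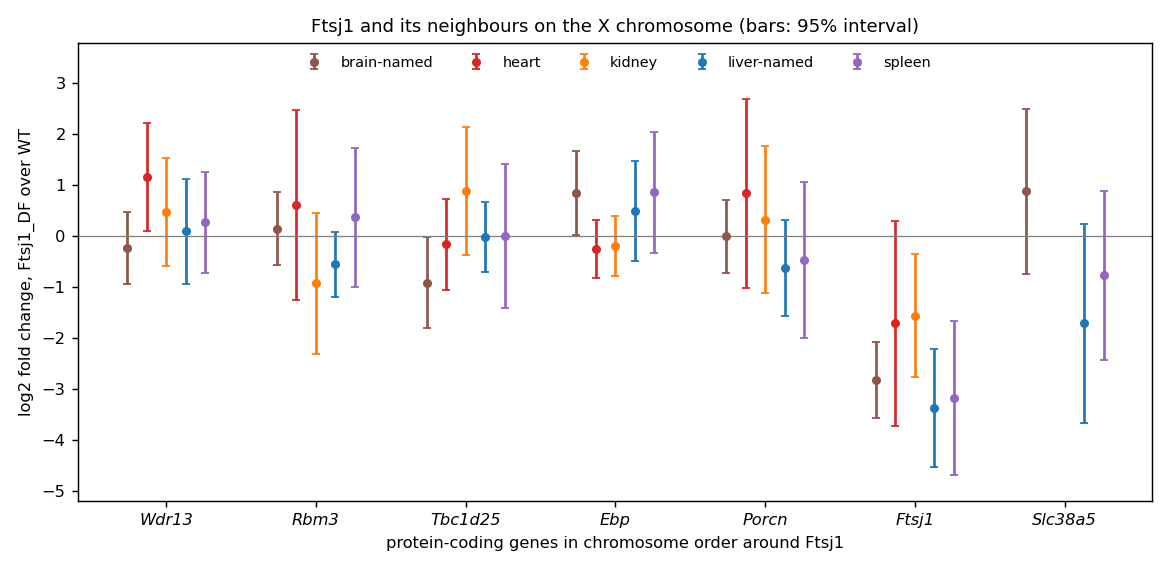
Points are the authors' deposited log2 fold changes, Ftsj1_DF over WT, in the 5 tables for Ftsj1 and its neighbours in chromosome order, with 95% intervals and only where the mean was at least 20 (the Ssxb genes were below it). Ftsj1 is below 0 in all 5 tables, and no neighbour passed in any.

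Genes that work with the 10 were described by 5 lists with 46 genes in all. Among 211 values tested in all, 2 rose and 1 fell, and 20 had an unadjusted p under 0.05. The share of all tested genes with such a p ran from 5.97% in spleen to 11.9% in kidney. The 20 of 211 are near this background, and the counts by list below are read beside the same shares. In kidney 1.21% of tested genes passed as higher and 0.866% as lower, and in heart 0.418% passed as higher. The 3 that passed concern bases next to the anticodon in tRNA and mitochondrial ribosome assembly. Tyw1, an enzyme of wybutosine synthesis on phenylalanine tRNA, fell in kidney, at -1.25 with a standard error of 0.25 in the authors' deposited table (DESeq2 adjusted p = 1.90e-04). Tyw3, a later enzyme of the same route, rose in kidney, at 2.18 with a standard error of 0.64 in the authors' deposited table (DESeq2 adjusted p = 0.0379). In yeast, wybutosine forms on tRNA that the Ftsj1 homolog methylates.

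The other 7 genes of that list, among them Trmt5, Trmt12 and Nsun2, passed in no table, and the list median in kidney was -0.46 over 8 tested genes, beside -0.01 over all tested genes. Of the 12 genes of mitochondrial large subunit assembly, Trub2, a pseudouridine synthase, rose in heart, at 1.87 with a standard error of 0.47 in the authors' deposited table (DESeq2 adjusted p = 0.0134). Ddx28 of this list was at 0 in all 5 tables and so was not measured, and the rest passed in no table. The 10 genes of the box C/D ribonucleoprotein and its assembly, which include the fibrillarin partners Nop56 and Nop58, had 0 of 49 values past the authors' DESeq2 test. An unadjusted p under 0.05 was found for 3 of them, and list medians ran from -0.31 in kidney to 0.53 in spleen. The 10 genes of cytosolic large subunit maturation had 0 of 50 past the same DESeq2 test and 5 below an unadjusted 0.05, with medians from -0.06 in kidney to 0.37 in the liver-named table. Of 5 further 2'-O-methyltransferase genes, Cmtr1, an enzyme of the mRNA cap, was listed at 0 in all 5 tables and so was not measured. The other 4, which include Cmtr2 of the cap, gave 14 tested values, of which 0 passed by the same DESeq2 test and 2 had an unadjusted p under 0.05.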

How the data were processed

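Per the labels, libraries started from 5 ug of total RNA, and tags were cut from adapter-ligated uncapped poly(A) molecules. Per the submitters' processing notes, featureCounts of Subread 2.0.3, DESeq2 and the build GRCm39 were used. The deposited mean is a signal in normalized counts averaged over all libraries of an organ, deposited fold changes and errors are log2 values, the deposited test statistic is a score equal to their ratio (checked in every row), and the deposited p-values are the authors' own. The reading of a positive value as higher in Ftsj1_DF rests on Ftsj1.

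Computed here were implied genotype means, levels in ppm of the table sum, inverse-variance means over the tables, z tests of differences and Benjamini-Hochberg adjustment over all genes at a false discovery rate of 5%, 2-sided. Levels within a gene were called apart after adjustment over all pairs of tables and genes described. Scripts were tested on simulated data. Named genes were the 10 members, 5 coding neighbours on each side, list genes that passed (with a few more as examples), the 5 genes nearest in test statistic and the 3 nearest in level. Nudt1 was named after its values were seen. The members and lists were chosen with earlier results of these data known. Computation used scipy 1.17.1, pandas 2.3.3 and numpy 2.4.6 under Python 3.11.15, with plots from matplotlib 3.10.9. Alternatives were other false discovery rates, adjustment sets, rescaled statistics, random effects, omitted tables and scalings.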

Additional observations from a re-analysis of the deposited data

How the results depend on the processing

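No paired analysis was possible because the tables hold no value per library, and for the same reason no single mouse could be left out. The count of these genes passing became 1 in kidney at a false discovery rate of 10% (Thada, adjusted p = 0.0616), 0 in the liver-named table with a rescaled test statistic (Ftsj1, adjusted p = 0.0561) and 0 in spleen at 1% (Ftsj1, adjusted p = 0.0261). Differences between tables numbered 1 at 10%. Combined values changed sign for Thada without the kidney table (-0.21) or the spleen table (-0.015) and for Mrm1 without the liver-named table (-0.086), and were not called in any of these cases. The combined Ftsj1 value stayed between -2.92 and -2.52 and passed under all 7 alternatives. The span of Ftsj1 levels, 2.20 in log2, was 2.22 to 2.69 under 3 alternatives. Standard errors with a median of 0.45 to 0.64 over genes of mean 20 or more limit what could be seen in single organs.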
